A study of Mus musculus with 6 samples.

Results

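The 44 collagen genes measured by a single-gene probe set were described in cultured neural stem cells and progenitors of adult mice, with and without active SIRT1. A gene was included when GEO's platform annotation paired a probe set with that gene alone and its symbol had the form of Col1a1 or Col4a2 with nothing after it. They were 44 of 19937 genes with such a probe set, and had 46 of the 34760 probe sets in the table. Where a gene had more than 1, the probe set with the highest mean over all 6 arrays was used. The Sirt1 inactive cultures came from NestinCre;Sirt1lox/lox mice (n = 3), which carry floxed Sirt1 alleles and a Cre recombinase driven by the Nestin promoter, and the labels describe their cells as lacking active SIRT1. The control cultures came from Sirt1lox/lox mice (n = 3), which carry the same floxed alleles and no Cre, and an effect of the recombinase alone would enter the comparison. All mice were of the 129SV strain and 8 weeks old. Cells grew first as neurospheres with EGF and bFGF, were then plated on a coated surface, and were harvested while dividing at passage 2. The titles call the samples biological replicates, and no label says how many mice went into each, so p-values measure the spread between these samples. Values are log2 expression values from RMA, and n = 3 arrays per genotype throughout.

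Collagens are extracellular proteins built from 3 chains that wind into a triple helix. Fibril-forming collagens give connective tissue its tensile strength, collagen IV forms the sheet of basement membranes, and other members sit on fibrils, span the plasma membrane or form short networks. In the adult brain they are made chiefly by meningeal, vascular and perivascular cells, and collagen IV and collagen XVIII lie in the basement membranes that contact neural stem cells of the subventricular zone. In a bulk culture, fewer cells of a type and less RNA per cell cannot be told apart.

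Sirt1, the targeted gene, read 8.26, 8.33 and 8.25 on the Sirt1 inactive arrays and 8.73, 8.78 and 8.55 on the control arrays. The groups did not overlap, and the log2 difference was -0.41 (SE 0.08), although it did not pass over all probe sets (limma, adjusted p = 0.959; exact permutation p = 0.1, the smallest that 3 against 3 arrays can give). Array medians lay between 7.36 and 7.39. Control replicate 3 stood apart, with a median absolute distance of 0.117 to the mean of the other arrays, against 0.059 to 0.089 for the other 5. The 11 stem and progenitor markers averaged 7.34 (Prom1) to 13.33 (Vim and Fabp7), with Sox2 at 11.66, Nes at 11.64, Hes1 at 9.39, Hes5 at 9.25 and Pax6 at 9.02. Prom1 lay below the median of tested probe sets, 7.9. Microglia markers averaged 5.93 to 8.22 and endothelial markers 5.48 to 8.45. Among 16 fibroblast and mural cell markers, Lum and Dpt averaged 5.11 and 5.06, while Acta2, Fn1 and Vtn averaged 10.63, 10.46 and 9.33. These are levels of different probe sets and give no order of RNA between genes.

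No collagen gene passed the test between the genotypes. Of 44 genes, 0 had an adjusted p under 0.05 (limma, Benjamini-Hochberg over 22961 probe sets), where 0.0% of all probe sets did, and the adjusted p-values ran between 0.959 and 0.994. At an unadjusted p under 0.05 there was 1 collagen gene, Col1a1, which is 2.27% of the members against 3.61% of all tested probe sets in either direction and 2.63% in the lower direction. With the replicate number as a block the count was 0 of 44, against 7.58% of all tested probe sets. The log2 differences ran from -0.15 to 0.06, with standard errors of 0.05 to 0.21. For all 44 genes the 95% interval of the difference lay within a 1.5-fold change in either direction, as it did for 94.0% of all tested probe sets. Mean levels of the collagen genes ran from 6.58 to 8.92, and 0 of 44 lay above the upper quartile of tested probe sets, 9.48. Between the lower quartile, 6.42, and the median, 7.9, lay 20 genes, and 24 lay between the median and the upper quartile. Differences on the RMA scale can understate differences in RNA, and RMA compresses those of dim probe sets. How near background these genes read was not tested, so a narrow interval does not exclude a larger difference in RNA.

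**Figure D1:**
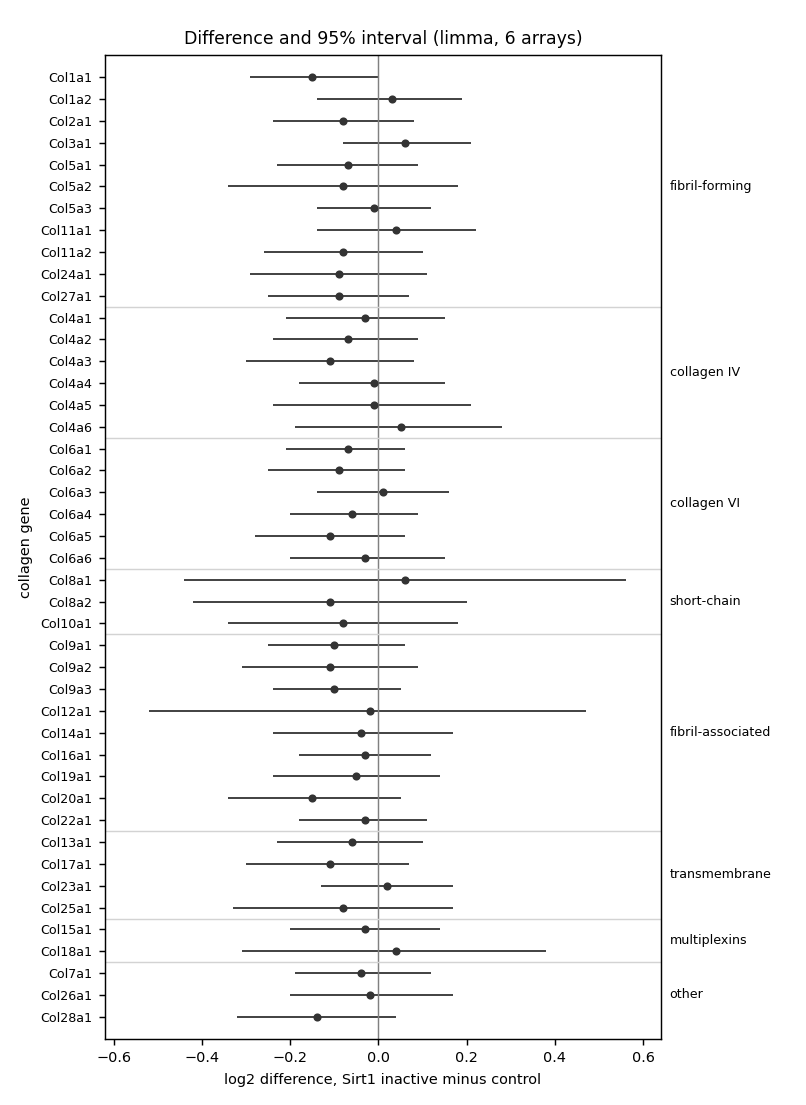
Log2 difference, Sirt1 inactive minus control, for each of the 44 collagen genes (points) with its 95% interval (bars; limma, 3 arrays per genotype), grouped by collagen class. The points lie between -0.15 and 0.06, and the widest intervals belong to Col8a1 and Col12a1.

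Most differences lay slightly below 0. The difference was below 0 for 36 of 44 genes (81.8%), against 60.1% of all tested probe sets, and the median difference was -0.062 for the collagen genes, against -0.022 for all tested probe sets and -0.024 for 19937 genes with 1 probe set each. Without control replicate 3 the difference was below 0 for 28 of 44 (63.6%), against 53.7% of all tested probe sets, and the median was -0.030. With the replicate block and without both arrays numbered 3 it was 33 of 44 (75%), against 54.1%, and the median was -0.035. Values were lower in 3 of 3 same-numbered pairs for 14 genes (31.8%, against 20.7% of probe sets) and higher in 3 of 3 for Col11a1 and Col3a1 (4.55%, against 10.9%). The groups did not overlap for 4 genes, all lower, which is 9.09% of members against 9.33% of all tested probe sets in either direction and 6.71% in the lower direction. Those 4 were Col1a1, Col4a3, Col6a1 and Col9a3.

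Fibril-forming collagens, the rope-like chains of connective tissue, had 8 of 11 genes below 0 and a median difference of -0.079. Without control replicate 3 the count was 7 and the median -0.013. Beside these and the following class counts below 0, the share of all tested probe sets was 60.1%, and 53.7% without control replicate 3. Col1a1 encodes the main chain of collagen I, and it read 8.38, 8.28 and 8.25 on the Sirt1 inactive arrays and 8.44, 8.43 and 8.47 on the control arrays. All Sirt1 inactive arrays were below all control arrays, and the difference of -0.15 (SE 0.06) was a level of 0.904 times control (limma, unadjusted p = 0.049, adjusted p = 0.959; 0.057 and 0.656 with the replicate block). Col1a2, whose chain joins that of Col1a1 in the same molecule, read 8.35, 8.34 and 8.51 on the Sirt1 inactive arrays and 8.38, 8.41 and 8.33 on the control arrays. Its groups overlapped, with a difference of 0.03 (SE 0.07). Whether the differences of these 2 genes differ from each other was not tested.

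Col3a1, the chain of collagen III in elastic tissues and vessel walls, read 8.22, 8.25 and 8.29 without active SIRT1 and 8.12, 8.23 and 8.22 in control. The groups overlapped at 8.22 to 8.23, and the difference was 0.06 (SE 0.06). Collagen V nucleates collagen I fibrils. Its Col5a1 chain read 8.32, 8.17 and 8.25 in Sirt1 inactive cultures against 8.38, 8.25 and 8.32 in control, lower in every same-numbered pair by a mean of 0.07, which did not pass. Col5a2, the second chain of that molecule, read 7.62, 7.77 and 7.65 against 7.88, 7.88 and 7.51 in control. Here control replicate 3 was the lowest of the 6 arrays and the other control arrays were the highest. Col11a1, of the cartilage-type collagen XI, read 8.06, 8.24 and 8.14 against 8.02, 8.19 and 8.13 in control, a difference of 0.04 (SE 0.08) with overlapping groups. The remaining fibril-forming genes, Col2a1, Col5a3, Col11a2, Col24a1 and Col27a1, differed by -0.09 to -0.01.

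**Figure D2:**
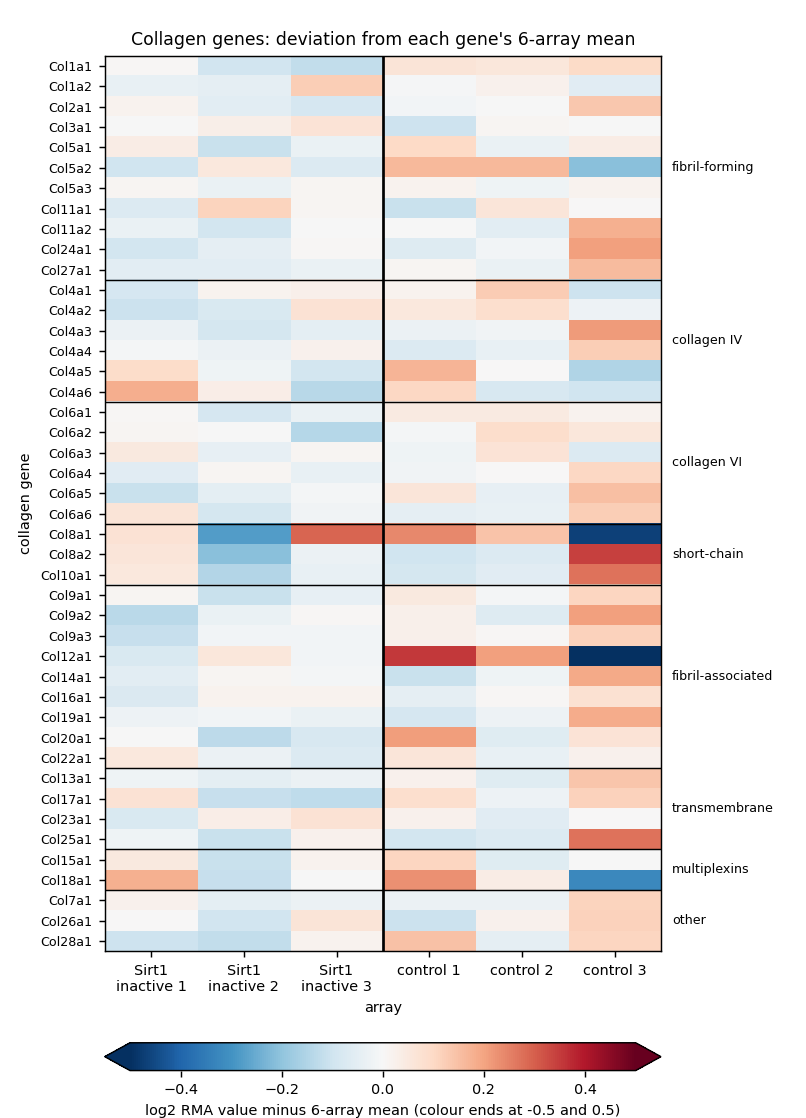
Each row is 1 of the 44 collagen genes, each column an array, and colour gives the log2 RMA value minus the gene's mean over the 6 arrays. The column of control replicate 3 holds both the highest values of many genes and the lowest of Col12a1, Col8a1, Col18a1 and Col5a2.

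Collagen IV genes lie in head-to-head pairs of neighbours on opposite strands, and the start regions of 4 of them are shown because partner chains could be compared array by array. The windows are those of RefSeq for GRCm38.p6, 250 bases before to 50 after the gene's start, read 5′ to 3′ on the gene's own strand. Col4a1 is chr8:11312777-11313076 (minus strand), Col4a2 is chr8:11312555-11312854 (plus strand), Col4a5 is chrX:141475169-141475468 (plus strand) and Col4a6 is chrX:141474027-141474326 (minus strand). Capitals mark matches on either strand. The CCAAT box was searched by the letters of its name. The GC box was searched as GGGCGG. The TATA box was searched as TATAAA.
Col4a1: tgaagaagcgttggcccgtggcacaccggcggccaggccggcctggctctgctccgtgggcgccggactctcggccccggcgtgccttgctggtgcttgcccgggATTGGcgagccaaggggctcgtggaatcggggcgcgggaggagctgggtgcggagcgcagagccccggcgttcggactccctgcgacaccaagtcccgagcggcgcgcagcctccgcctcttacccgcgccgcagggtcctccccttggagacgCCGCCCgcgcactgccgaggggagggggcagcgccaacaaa
Col4a2: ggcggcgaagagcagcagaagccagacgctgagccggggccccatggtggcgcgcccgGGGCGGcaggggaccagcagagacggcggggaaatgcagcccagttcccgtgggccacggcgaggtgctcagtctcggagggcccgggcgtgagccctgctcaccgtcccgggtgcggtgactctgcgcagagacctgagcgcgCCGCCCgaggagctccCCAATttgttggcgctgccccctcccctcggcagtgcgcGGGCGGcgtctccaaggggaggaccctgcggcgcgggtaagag
Col4a5: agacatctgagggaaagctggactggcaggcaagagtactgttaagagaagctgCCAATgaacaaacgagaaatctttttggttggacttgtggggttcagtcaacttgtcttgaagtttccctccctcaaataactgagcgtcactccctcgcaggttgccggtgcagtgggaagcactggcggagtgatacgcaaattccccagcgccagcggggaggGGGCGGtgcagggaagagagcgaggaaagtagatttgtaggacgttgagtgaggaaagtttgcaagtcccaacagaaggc
Col4a6: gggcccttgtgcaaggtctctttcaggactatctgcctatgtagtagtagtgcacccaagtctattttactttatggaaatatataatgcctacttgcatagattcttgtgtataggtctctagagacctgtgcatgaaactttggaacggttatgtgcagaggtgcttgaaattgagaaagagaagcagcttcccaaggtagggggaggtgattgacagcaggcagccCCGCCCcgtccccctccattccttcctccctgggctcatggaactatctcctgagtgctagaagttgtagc
The Col4a1 and Col4a2 windows share 78 bases, and the Col4a2 start lies 21 bases to the left of the Col4a1 start, so that the first bases of both genes overlap on opposite strands. The Col4a5 start lies 1343 bases to the right of the Col4a6 start. No window held TATAAA. Col4a2 had 3 matches of GGGCGG and 1 of CCAAT, Col4a1 and Col4a5 had 1 of each, and Col4a6 had 1 of GGGCGG. The GGGCGG match of Col4a1 and 1 of those of Col4a2 are the same bases, within the 78 shared, read on opposite strands. None of the matches overlapped another motif. RefSeq windows were found for 35 of the 44 genes (38 windows). GGGCGG occurred in 60.5% of these windows against 35.7% of the 32851 windows counted, CCAAT in 34.2% against 37.4% and TATAAA in 13.2% against 13.6%. Windows on 1 chromosome and windows of a length other than 300 bases were left out of these counts. A match is a description of letters and not evidence of a bound site.

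Collagen IV genes had 5 of 6 below 0 with a median of -0.023, against 4 and -0.061 without control replicate 3. Col4a1 and Col4a2 encode the chains of the common basement membrane collagen IV. Col4a1 read 8.30, 8.40 and 8.41 on the Sirt1 inactive arrays and 8.40, 8.51 and 8.28 on the control arrays, a difference of -0.03 (SE 0.08). Col4a2 read 8.13, 8.16 and 8.31 on the Sirt1 inactive arrays and 8.29, 8.32 and 8.21 on the control arrays, a difference of -0.07 (SE 0.07). Both genes had their highest control value on replicate 2 and their lowest on replicate 3, and both were lower in 2 of 3 same-numbered pairs. In the other pair, Col4a5, named after its values were seen, read 7.84, 7.73 and 7.66 on Sirt1 inactive arrays and 7.92, 7.75 and 7.60 on control arrays, and Col4a6 read 7.72, 7.57 and 7.40 against 7.64, 7.46 and 7.44 in control. In both genotypes each of these X-linked genes was highest on replicate 1 and lowest on replicate 3, and their differences were -0.01 and 0.05 (SE 0.10 for both). Col4a3, a chain of the specialised basement membranes of kidney and lung, read 7.12, 7.06 and 7.10 in Sirt1 inactive cultures against 7.12, 7.13 and 7.36 in control. Its groups met at 7.12 as rounded, and before rounding every Sirt1 inactive value lay below every control value. Its difference of -0.11 was -0.03 without control replicate 3. Its neighbour Col4a4 differed by -0.01.

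Collagen VI, which links cells to the surrounding matrix through beaded filaments, had 5 of 6 genes below 0. Col6a1 read 7.98, 7.89 and 7.94 without active SIRT1 and 8.02, 8.02 and 7.99 in control, with no overlap and a difference of -0.07 (SE 0.06). Its partner chains gave overlapping groups. Col6a2 read 8.01, 8.00 and 7.86 in Sirt1 inactive cultures against 7.99, 8.09 and 8.06 in control, a difference of -0.09. For Col6a3 the values were 7.94, 7.85 and 7.90 in Sirt1 inactive cultures and 7.87, 7.96 and 7.82 in control, a difference of 0.01. None of the 3 chains, which assemble into one molecule, passed the test. Col6a5 read 7.29, 7.35 and 7.39 against 7.46, 7.36 and 7.55 in control (-0.11, SE 0.07; -0.06 without control replicate 3), and Col6a4 and Col6a6 differed by -0.06 and -0.03. Col6a5 and Col6a6 each had a further, dimmer probe set, with differences of -0.11 (SE 0.06) and 0.05 (SE 0.09). For Col6a6 the sign was thus opposite to that of the probe set used, and neither passed.

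Fibril-associated collagens, which coat and space fibrils, had all 9 genes below 0, with a median of -0.049. Without control replicate 3 it was 6 of 9, with a median of -0.038. Col9a3 encodes a chain of collagen IX and read 8.80, 8.90 and 8.90 in Sirt1 inactive cultures against 8.94, 8.92 and 9.03 in control, a difference of -0.10 (SE 0.06) without overlap. Its partner Col9a1 read 7.49, 7.37 and 7.44 in Sirt1 inactive cultures against 7.53, 7.47 and 7.59 in control, also -0.10 (SE 0.06) but with overlapping groups, and the third chain, Col9a2, differed by -0.11 (SE 0.08). The 3 chains of collagen IX had nearly equal differences, and the 95% interval of each included 0. Without control replicate 3, the highest array for all 3, they were -0.06, -0.06 and -0.04 for Col9a3, Col9a1 and Col9a2. Col20a1 read 7.84, 7.71 and 7.76 against 8.05, 7.78 and 7.91 in control, a difference of -0.15 (SE 0.08; limma, adjusted p = 0.959). With the replicate block the difference was the same (SE 0.06, limma, unadjusted p = 0.051, adjusted p = 0.656). The Sirt1 inactive value of Col20a1 was lower in 3 of 3 pairs although the groups overlapped. The other members of the class apart from Col12a1, namely Col14a1, Col16a1, Col19a1 and Col22a1, differed by -0.05 to -0.03.

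Transmembrane collagens, which anchor in the plasma membrane, had 3 of 4 genes below 0, and 2 of 4 without control replicate 3. Col17a1, a hemidesmosome component of epithelia, read 7.37, 7.18 and 7.17 in Sirt1 inactive cultures against 7.38, 7.27 and 7.41 in control (-0.11, SE 0.08). Col23a1 read 8.43, 8.54 and 8.58 against 8.53, 8.45 and 8.51 in control (0.02, SE 0.07). Neither separated the genotypes. Col13a1 differed by -0.06, and Col25a1, a neuronal collagen found in amyloid plaques, by -0.08. Among the rest, Col28a1 read 6.92, 6.90 and 7.04 in Sirt1 inactive cultures against 7.17, 6.98 and 7.13 in control (-0.14, SE 0.08), lower in 3 of 3 pairs with overlapping groups. Col26a1 read 8.34, 8.24 and 8.40 in Sirt1 inactive cultures against 8.23, 8.36 and 8.45 in control (-0.02). Col7a1, of the anchoring fibrils of skin, differed by -0.04.

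In the 3 collagen genes with the widest spans, control replicate 3 was the lowest array. Col8a2 and Col10a1 had the next widest spans, 0.54 and 0.41, and there it was the highest array. Col12a1, a fibril-associated collagen of tissues under tension, had the widest span over the 6 arrays, 0.88, and is described in full because of it, a choice made after its values were seen. It read 8.00, 8.13 and 8.06 on the Sirt1 inactive arrays and 8.43, 8.28 and 7.55 on the control arrays. Col8a1, a short-chain collagen of vessel walls and Descemet's membrane, read 8.40, 8.05 and 8.62 on the Sirt1 inactive arrays and 8.57, 8.47 and 7.86 on the control arrays, a span of 0.76 with its highest value on Sirt1 inactive replicate 3 and SDs of 0.29 in Sirt1 inactive cultures and 0.38 in control. Col18a1, the basement membrane collagen whose end fragment is endostatin, read 8.95, 8.66 and 8.77 on the Sirt1 inactive arrays and 9.0, 8.81 and 8.45 on the control arrays, a span of 0.55. The other short-chain genes, Col8a2 and Col10a1, differed by -0.11 (SE 0.13) and -0.08 (SE 0.11), and the other multiplexin, Col15a1, by -0.03 (SE 0.07). Col12a1, Col8a1 and Col18a1, and Col5a2, were lowest on control replicate 3, and the median span was 0.23 over the collagen genes and 0.27 over all tested probe sets. The control SD was above the Sirt1 inactive SD for 32 of 44 genes (72.7%), against 60.0% of tested probe sets.

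The start region of Col8a1 (chr16:57754688-57754987, minus strand, same window and build) is shown as that of a gene with a wide span, with 4 matches of GGGCGG in capitals and none of the other motifs.
Col8a1: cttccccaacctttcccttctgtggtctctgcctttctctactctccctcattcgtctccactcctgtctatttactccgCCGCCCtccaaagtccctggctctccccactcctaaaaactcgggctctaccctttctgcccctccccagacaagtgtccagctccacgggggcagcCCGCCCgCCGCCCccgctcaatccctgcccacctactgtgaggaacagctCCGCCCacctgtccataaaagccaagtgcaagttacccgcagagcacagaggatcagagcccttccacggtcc

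**Figure D3:**
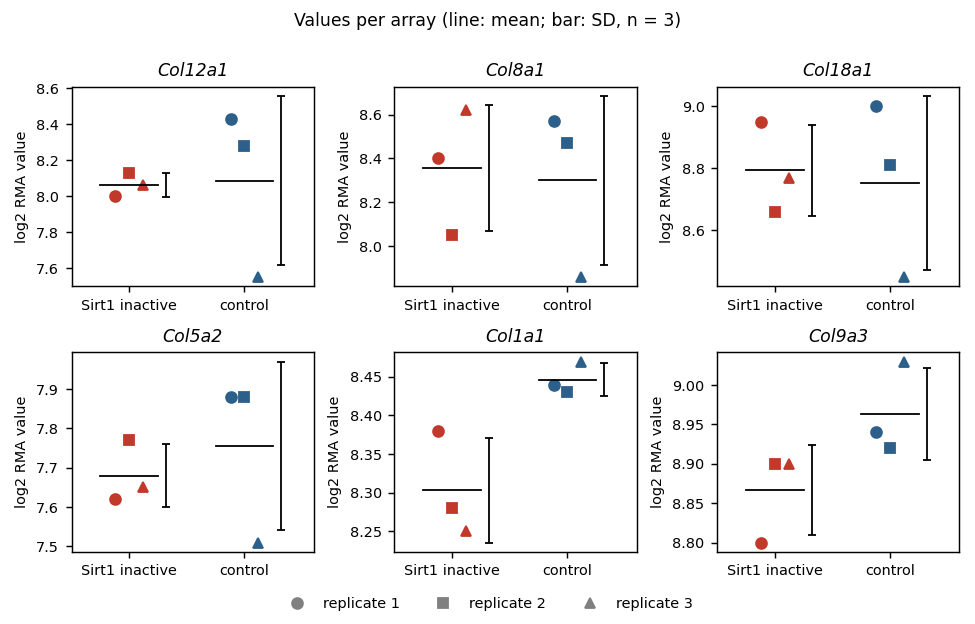
Log2 RMA values of 6 collagen genes on each array (symbols for replicate numbers), with the mean and SD of each genotype (n = 3). Col12a1, Col8a1, Col18a1 and Col5a2 have control replicate 3 as the lowest array, whereas Col1a1 and Col9a3 have it as the highest.

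Control replicate 3 was the highest array for 24 collagen genes (54.5%, against 37.2% of tested probe sets) and the lowest for 8 (18.2%, against 17.7%). The 8 were Col12a1, Col8a1, Col18a1, Col5a2, Col4a1, Col4a5, Col1a2 and Col6a3. Without this array Col12a1 differed by -0.29 (SE 0.08) and Col5a2 by -0.20 (SE 0.07), against -0.02 and -0.08 with it. These were the 2 genes at an unadjusted p under 0.05 in that fit (4.55% of members, against 2.81% of tested probe sets, or 1.99% in the lower direction), and neither had an adjusted p under 0.05 (limma, 1.0 for both). When both arrays numbered 3 were left out and the replicate number was kept as a block, Col12a1 was at -0.29 (95% interval -0.50 to -0.08), Col8a1 at -0.29 (-0.49 to -0.10) and Col5a2 at -0.19 (-0.36 to -0.01). They were 3 of 44 members at an unadjusted p under 0.05 (6.82%, against 8.59% of tested probe sets, or 5.7% in the lower direction), all lower, and 0 members passed in that fit (limma, adjusted p = 0.404, 0.382 and 0.555), in which 0.0827% of all probe sets did. That fit estimates 3 coefficients from 4 arrays. Its standard errors and intervals therefore rest largely on the spread pooled over all probe sets, and hardly on that of these genes. Col8a1 turned sign between the fits, with 0.06 (SE 0.21) on all 6 arrays.

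Several marker lists moved with that array. The 16 markers of fibroblasts and mural cells, the usual makers of some of these collagens, lay on average 0.44 below their 6-array mean on control replicate 3, and between 0.02 and 0.20 above it on the other 5. Their summed level, as the log2 of the sum of linear values, was 12.73 to 13.32 on the Sirt1 inactive arrays and 12.38 to 13.02 on the control arrays, and 10 of 16 were lowest on control replicate 3. Thy1, Kcnj8 and Dpt of that list were highest there, Thy1 with 11.08. Fn1, the fibronectin gene, read 9.16 there and 10.34 to 10.96 on the other arrays. Astrocyte markers lay on average 0.57 below their mean on control replicate 3, and 7 of 10 were lowest there. Gfap had the widest span, with 7.41 there and 9.55 to 10.25 on the other arrays, whereas Sox9 was highest there with 11.79. Neuroblast and neuron markers lay 0.28 above, with 7 of 10 highest there and 1, Stmn2, lowest with 6.94. Oligodendrocyte progenitor markers lay 0.13 below on average but were split, with 4 of 10 lowest and 4 highest on control replicate 3. Their summed level was highest there, 14.47 against 14.27 to 14.42 on the other arrays. Endothelial markers lay 0.06 below and stem and progenitor markers 0.04 below, and microglia markers 0.07 above. The 44 collagen genes as a whole lay 0.05 above their mean on control replicate 3. The part of any of these cells in the collagen values was not tested.

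Genes that modify, cleave and cross-link collagen gave 23 of 33 members above 0 and a median of 0.039, with 0 passing the test (0 of 33 also with the replicate block). Beside this and the following list counts, 9156 of 22961 tested probe sets lay above 0 on 6 arrays. Below 0 lay 60.1% of them, and 53.7% without control replicate 3. Tll2, of the family of procollagen C-proteinases, was at -0.17 (SE 0.07), the collagen galactosyltransferase gene Colgalt2 at -0.46 (SE 0.32), Pcolce2, which enhances propeptide removal, at 0.32 (SE 0.17) and Serpinh1, the collagen chaperone HSP47, at 0.17 (SE 0.16). Without control replicate 3 these were -0.17 for Tll2, -0.19 for Colgalt2, 0.21 for Pcolce2 and -0.02 for Serpinh1. That fit leaves Sirt1 inactive replicate 3 without its same-numbered partner. With the replicate block and without both arrays numbered 3 they were -0.23, -0.46, 0.03 and -0.04, in the same order. On all 6 arrays with the block, Colgalt2 was at -0.46 (SE 0.1, limma, adjusted p = 0.656). On control replicate 3, 24 of the 33 genes were at their lowest. Without that array 27 of 33 were below 0 and the median was -0.052, so the lean of this list turned round. P4ha3, a prolyl hydroxylase subunit named after its values were seen, read 8.15, 7.66 and 7.90 without active SIRT1 and 8.71, 8.12 and 7.02 in control. Its difference was -0.04 (SE 0.39) on 6 arrays and -0.50 (SE 0.07) in the blocked fit without number 3, where it did not pass (limma, adjusted p = 0.093).

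**Figure D4:**
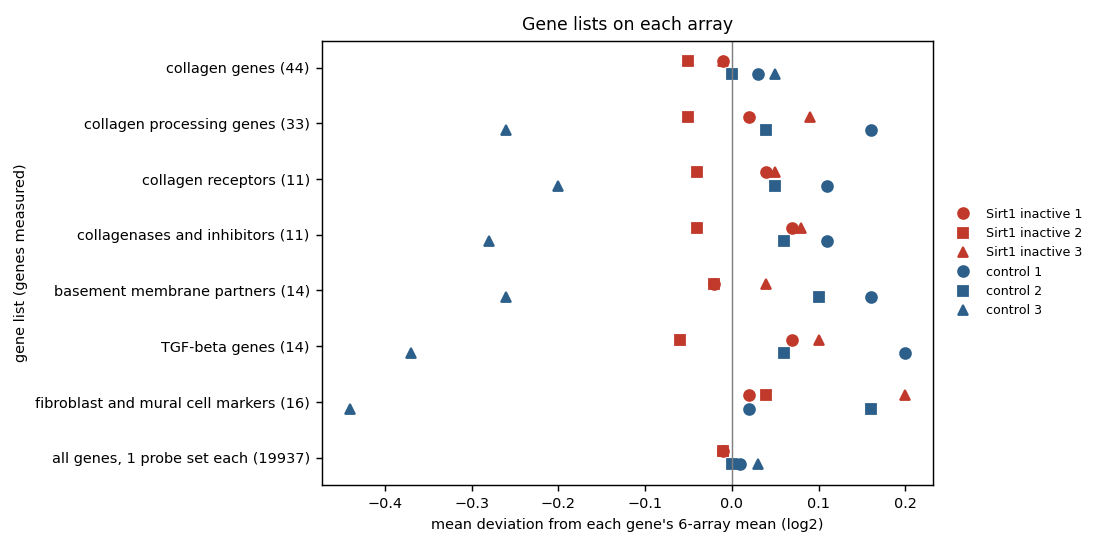
Mean deviation of each gene list from its genes' 6-array means (x axis, log2) on each array, with Sirt1 inactive arrays drawn above control arrays in each row. Control replicate 3 lies at -0.20 to -0.44 for the lists of collagen partners and fibroblast markers, at 0.05 for the collagen genes and at 0.03 for all genes.

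The other lists of collagen partners also held genes whose difference hung on control replicate 3. Collagen receptors had 4 of 11 genes above 0 and a median of -0.044, with Itga10 at -0.09, Itga1 at 0.35, Adgrg6 at 0.35 and Ddr1, a collagen-activated kinase, at 0.10. Itga1, a collagen-binding integrin chain, read 8.35, 8.17 and 8.49 in Sirt1 inactive cultures against 8.41, 8.35 and 7.20 in control, and its difference was -0.04 without control replicate 3, the lowest array. Adgrg6 was at 0.01 and Itga10 at -0.07 without that array, and Ddr1 lay within 0.01 of control. Collagenases and their inhibitors had 6 of 11 above 0 and a median of 0.043, with the inhibitors Timp1 at 0.60 (SE 0.35; 0.16 without control replicate 3) and Timp4 at 0.18, the membrane collagenase Mmp14 at 0.22 (-0.04 without it) and Mmp13 at -0.05. Basement membrane partners of collagen IV had 6 of 14 above 0 and a median of -0.022, with the laminin chains Lama1 at -0.12, Lama3 at -0.11, Lama4 at -0.24 (-0.41 without control replicate 3) and Lama5 at 0.19 (0.01 without it). The TGF-beta pathway drives collagen transcription in fibroblasts, though not every member of its list does so. That list of ligands, receptors, mediators and targets had 9 of 14 above 0 and a median of 0.071. In that list Smad3 was at 0.31 (SE 0.17), Tgfbr1 at 0.11, Smad4 at -0.08 and Ltbp3 at 0.14. Without control replicate 3 Smad3 was at 0.09, Tgfbr1 at 0.09, Smad4 at -0.09 and Ltbp3 at 0.0. None of these 4 lists had a gene that passed (limma, adjusted p under 0.05), and without control replicate 3 their medians were -0.044 for receptors, -0.045 for collagenases and inhibitors, -0.069 for basement membrane partners and -0.089 for TGF-beta genes.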

How the data were processed

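RNA of 6 cultures was hybridised to 1-colour Affymetrix whole-transcript arrays, 1 per sample. The authors deposited log2 expression values per probe set, adjusted for background and normalized with RMA, per the series' design text and the submitters' processing notes; the log2 scale was read from the values (3.02 to 13.62). No RMA version or annotation build was found in the labels. RMA compresses differences of dim probe sets. The table held 0 columns of other samples. No further normalization was applied.

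Probe sets paired with at least 1 gene (22961 of 34760) were fitted over 6 arrays with limma 3.58.1 in R 4.3.3, with genotype as the term and empirical Bayes moderation. Two-sided p-values were adjusted by Benjamini-Hochberg over all tested probe sets. Differences are Sirt1 inactive minus control. Precision rests on 6 arrays, with a median standard error of 0.0802. The fit was tested on simulated data. Same-numbered arrays deviated together from their genotype means (r = 0.47, 0.358 and 0.27), so the replicate number was taken as a pairing and fitted as a block. Named collagen genes were the 8 with the highest means, up to 8 per direction with the smallest p, those without overlap and the partner chains of collagens I, III, IV, V and VI; from each further list, up to 4 genes with the smallest p. Members and lists were chosen with earlier results of these data known. All 44 members were found by Entrez identifier in RefSeq's GRCm38.p6 gene table. Alternatives were other scalings, filters, weights, priors and arrays left out.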

Additional observations from a re-analysis of the deposited data

How the results depend on the processing

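No collagen gene passed under any alternative run (limma, adjusted p at or above 0.05 in each), and Sirt1 stayed lower, at -0.358 to -0.473, without passing (adjusted p 0.107 to 1.0). The median difference of the collagen genes stayed below 0, at -0.024 to -0.068. The replicate number as a block changed no call at the adjusted threshold. The count at an unadjusted p under 0.05 was 1 as reported, against 3.61% of tested probe sets. It was 0 with the replicate block (7.58% of tested probe sets), with array medians subtracted (3.28%) and with renewed quantile normalization (3.43%). An intensity trend and robust prior (3.48%) and testing all probe sets (3.96%) also gave 0. It was 3 with the replicate block and both arrays numbered 3 left out (6.82% of members, against 8.59%). With 1 array left out it was 0 to 2, against 1.99% to 6.33% of tested probe sets. The count without overlap, 4 as reported, was 2 with array medians subtracted (8.81% of tested probe sets did not overlap), 14 without both arrays numbered 3 (31.8% of members, against 27.3%) and 5 to 14 with 1 array left out, where fewer arrays overlap less often (15.6% to 22.8% of tested probe sets). Fits that only change the model give no separate value of that count. Every control array median was above every Sirt1 inactive one. With array medians subtracted, 32 of 44 collagen genes lay below 0 and their median was -0.037, against 36 and -0.062 as reported. Of all tested probe sets 48.9% then lay below 0 with a median of 0.002, against 60.1% and -0.022 as reported.

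Signs turned for 22 of 44 collagen genes under at least 1 alternative and for the other 22 under none; none of the turned values passed, and the cause was not tested. With the replicate block and without both arrays numbered 3 the turned differences were Col10a1 0.028, Col14a1 0.047, Col18a1 -0.105, Col19a1 0.037, Col1a2 -0.053, Col23a1 -0.006, Col25a1 0.013, Col4a4 0.029, Col6a3 -0.023, Col6a6 0.030, Col7a1 0.015, Col8a1 -0.293 and Col8a2 0.015. Array weights gave Col11a1 -0.006, Col15a1 0.018, Col18a1 -0.015, Col25a1 0.014, Col26a1 0.006, Col4a4 0.025, Col5a3 0.012, Col6a3 -0.030 and Col6a6 0.011. Array medians subtracted gave Col26a1 0.005, Col4a4 0.010, Col4a5 0.013 and Col5a3 0.016, renewed quantile normalization Col4a4 0.009, Col4a5 0.005 and Col5a3 0.005, and averaging all probe sets of a gene Col6a6 0.012. With 1 array left out the ranges were Col10a1 -0.146 to 0.032, Col11a1 -0.011 to 0.081, Col12a1 -0.294 to 0.147, Col14a1 -0.105 to 0.049, Col15a1 -0.066 to 0.017, Col16a1 -0.060 to 0.004, Col18a1 -0.114 to 0.161, Col19a1 -0.106 to 0.031, Col1a2 -0.029 to 0.058, Col23a1 -0.012 to 0.063, Col25a1 -0.138 to 0.041, Col26a1 -0.076 to 0.033, Col4a1 -0.089 to 0.026, Col4a4 -0.052 to 0.044, Col4a5 -0.092 to 0.070, Col4a6 -0.031 to 0.129, Col5a3 -0.024 to 0.003, Col6a3 -0.022 to 0.046, Col6a6 -0.062 to 0.030, Col7a1 -0.058 to 0.011, Col8a1 -0.161 to 0.209 and Col8a2 -0.189 to 0.030. With 3 arrays per genotype, the median 95% interval reached 0.189 to either side. This is the width of an interval for 1 probe set and not a limit of what the adjusted test can call.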
